A study of Rattus norvegicus with 9 samples.

Results

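Gene expression was compared between knee cartilage of model rats, in which knee osteoarthritis (KOA) had been provoked by surgery, and knee cartilage of control rats. The comparison took every gene of the deposited table in 6 of its 9 RNA sequencing libraries, 3 of control and 3 of model rats. The 3 libraries of rats given SYD, a herbal decoction, were not compared here. All rats were male Sprague-Dawley animals of 8 weeks when bought, and tissue was collected 8 weeks after surgery on the left knee. In control rats the joint capsule was opened and sutured, and nothing else was done. In model rats the modified Hulth method was used: the medial collateral and anterior cruciate ligaments were cut out, the medial meniscus was taken away, and the animals were made to exercise daily. No source states how many animals a library holds, so each p-value measures only the spread between these samples. The table listed 32043 genes, of which 13898 had a mean of at least 0.5 FPKM over the 9 libraries and were tested. FPKM are fragments per kilobase of gene length, scaled by a library size that the authors set, so levels of different genes are given per length throughout.

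The labels name cartilage as the tissue, although their extraction text speaks of retinas. The 8 chondrocyte markers Col2a1, Acan, Sox9, Comp, Matn3, Hapln1, Col9a1 and Cnmd summed to 10119, 399.7 and 5297 FPKM in control and 732, 98 and 132 FPKM in the model, with values in the order of libraries 1, 2 and 3 of each group here and below. Of photoreceptor markers, Sag, the arrestin of rods, measured 0.312, 0.873 and 0.442 FPKM in control and 0 in every model library, and Pde6b and Gnat1 were at most 0.0234 FPKM in any library. Rom1, a protein of photoreceptor discs, measured 3.23, 2.99 and 3.02 FPKM in control and 0, 3.91 and 0 FPKM in the model. Cartilage RNA was thus present in every library. The same libraries held other tissues. Markers of osteoblasts (Bglap, Ibsp, Sp7 and Dmp1) summed to 1417, 1009.6 and 1417 FPKM in control and 1365, 2418 and 535 FPKM in the model. Markers of neutrophils (Elane, Mpo, Camp and Ngp), which are made in bone marrow, summed to 825, 1357 and 894 FPKM in control and 364, 6.06 and 125 FPKM in the model. The label cartilage therefore covers a mixture of cartilage, bone and marrow in these data.

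Articular cartilage is made by chondrocytes, which secrete a network of type II, IX and XI collagen filled with the proteoglycan aggrecan. It rests on subchondral bone, whose spaces hold vessels and blood-forming marrow. In osteoarthritis the matrix is degraded by collagenases and aggrecanases, bone is remodelled, and vessels and fibrous tissue grow at the margins of the joint. A piece of joint surface sampled in bulk carries RNA of all of these. In such samples fewer cells of a type and less RNA per cell cannot be told apart.

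The libraries differed before any gene was considered. They held 14914121, 16935437 and 18107232 reads in control and 18815977, 18357981 and 19360723 reads in the model, as recovered from the FPKM. Genes of the mitochondrial chromosome (MT) took 4.07, 4.86 and 4.05% of the reads in control and 90.7, 39.5 and 81.3% in the model, or 4.33% ± 0.458 against 70.5% ± 27.3 (SD, n = 3 each; exact permutation test, two-sided, p = 0.1, the smallest that 3 against 3 can give). Reads left for all other genes numbered 14306782, 16113184 and 17373645 in control and 1744769, 11106680 and 3611325 in the model. Between 18877 and 19309 genes outside MT had at least 1 read in control, but 9267, 14469 and 10809 in model 1, 2 and 3. Of genes with a control mean between 3 and 10 FPKM, 23.0% were listed at 0 in model 1, 2.60% in model 2 and 15.6% in model 3. The correlation of log2 FPKM over genes outside MT lay between 0.930 and 0.977 for pairs of control libraries and between 0.624 and 0.688 for pairs of model libraries, so the model libraries differed from each other more than the control libraries did. Of genes with a control mean over 30 FPKM, 1.57, 2.17 and 1.93% were listed at 0 in model 1, 2 and 3. Below that level a value of 0 in model 1 or model 3 therefore says less than a value of 0 in model 2.

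**Figure D1:**
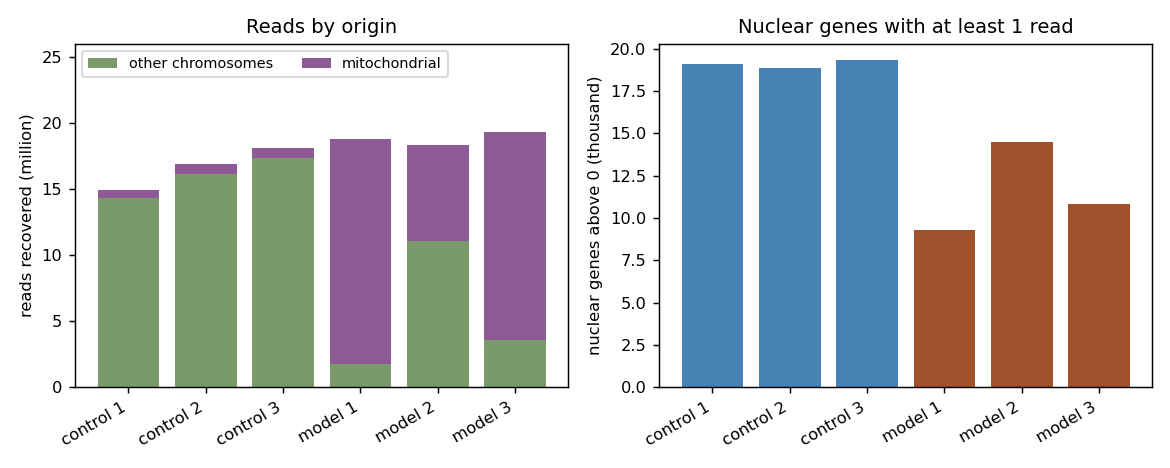
Left, reads recovered per library, split into mitochondrial genes and all other chromosomes. Right, the number of genes outside the mitochondrial chromosome with at least 1 read. Bars are single libraries with no error bars. Mitochondrial genes took 90.7% of the reads of model 1 and 81.3% of those of model 3, against 39.5% in model 2 and at most 4.86% in control.

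Control 2 and model 2 stood apart within their groups in other ways. Control 2 was low in cartilage RNA, with 348 FPKM of Col2a1 against 8323 and 4468 in the other control libraries, and had the highest sum of neutrophil markers of the controls. Model 2 had the highest sums of osteoblast, osteoclast and endothelial markers and the lowest sum of neutrophil markers of the 6 libraries. Most lists are followed below by the range of their counts with 1 library left out.

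Each gene was tested with limma on log2(FPKM + 1), where the added 1 shrinks the fold change of weakly expressed genes. An adjusted p-value (Benjamini-Hochberg over all 13898 genes) under 0.05 was reached by 360 genes (2.59%), of which 327 fell (2.35%) and 33 rose (0.237%). The words rose and fell are kept for these genes. By the screening criteria of the study, an unadjusted p-value under 0.05 and a log2 fold change over 1 in size, 2046 genes (14.7%) were differentially expressed genes (DEGs), 1553 lower (11.2%) and 493 higher (3.55%) in the model. The model and control values did not overlap for 20.0% of the genes tested in the lower and for 8.65% in the higher direction. Of the 327 falls, 210 were listed at 0 in every model library and 274 in both model 1 and model 3. The adjusted calls were fragile: without control 1, 2 or 3 no gene passed, with 1744, 1641 and 1575 genes at an unadjusted p under 0.05 in limma, and calls numbered 793 without model 1, 2621 without model 2 and 1 without model 3. With the replicate number as a block no gene passed either, with 1851 at an unadjusted p under 0.05.

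The scale mattered as much. The median log2 fold change of all genes tested was -0.23 on the FPKM of the authors, -2.60 when each library was rescaled to TPM, a fixed total over all genes per length, -0.64 with a fixed total over the genes outside MT, 0.04 after quantile normalization and -0.52 with voom on the recovered reads. List medians below are to be read against -0.23. Under TPM every list median is negative, because mitochondrial RNA takes much of the fixed total, so medians relative to all genes are given where a direction turns.

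The genes were grouped in 35 lists of 886 entries, of which 866 matched the table and 799 were tested. Their 797 genes held 24 falls, 2 rises, 118 lower DEGs and 41 higher DEGs. Of the 799 entries, 38 reached a mean of 0.5 FPKM only in control and 25 only in the model, and a member that passed in this way had to differ. Of the list members called below, Dpp4, Trem1, Tspo2, Cd72, Nkg7, Cd3g, Cd247, Ms4a2, Hdc and Srxn1 reached it in control alone and Fosb in the model alone. Genes are named by the rule given under the processing, and further members that are named were chosen after their values were seen.

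**Figure D2:**
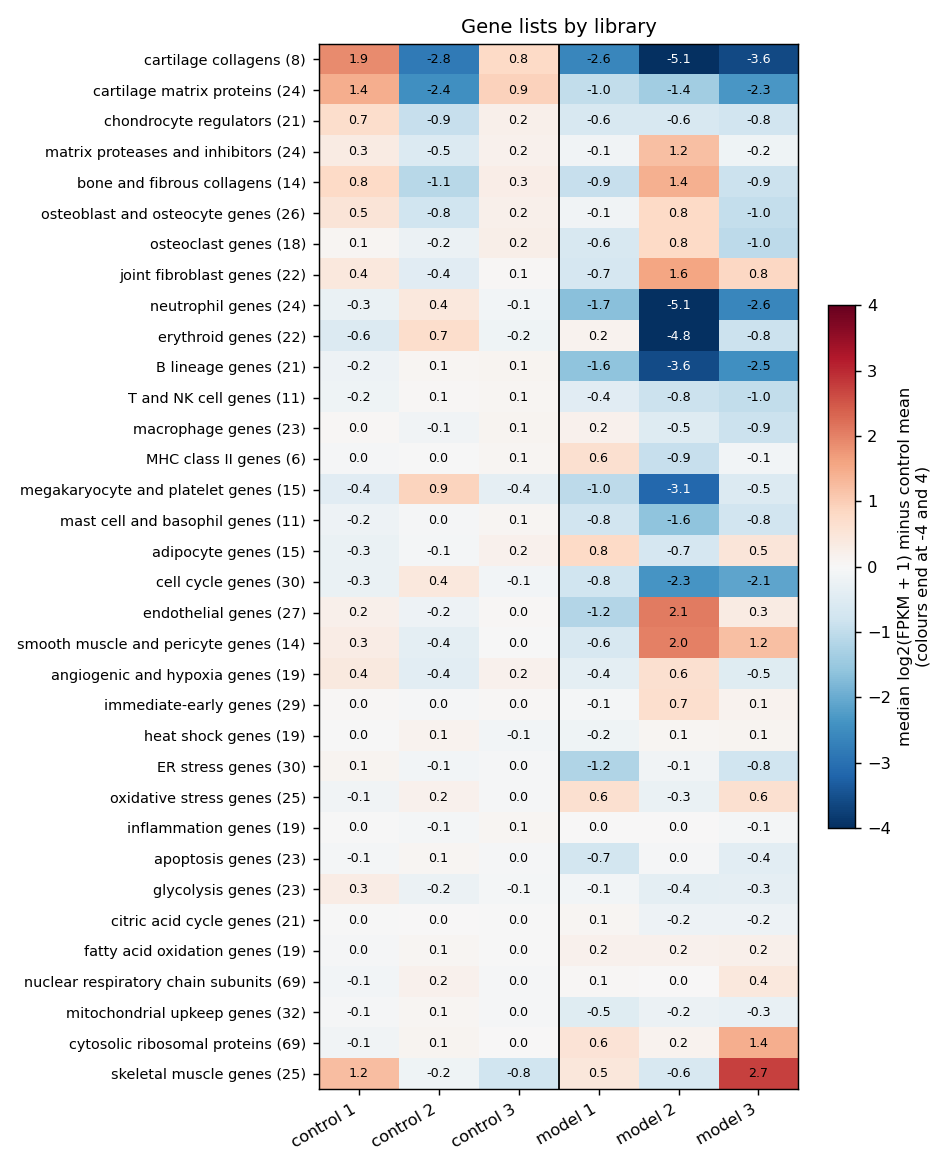
Each cell is the median over a list of log2(FPKM + 1) in a library minus the control mean of the gene, with the number of tested genes in brackets, columns being the 6 libraries. Cartilage collagens stand at -2.61, -5.06 and -3.60 in model 1 to 3 and also at -2.82 in control 2, and erythroid genes stand at 0.15, -4.82 and -0.85 in model 1 to 3.

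**Figure D3:**
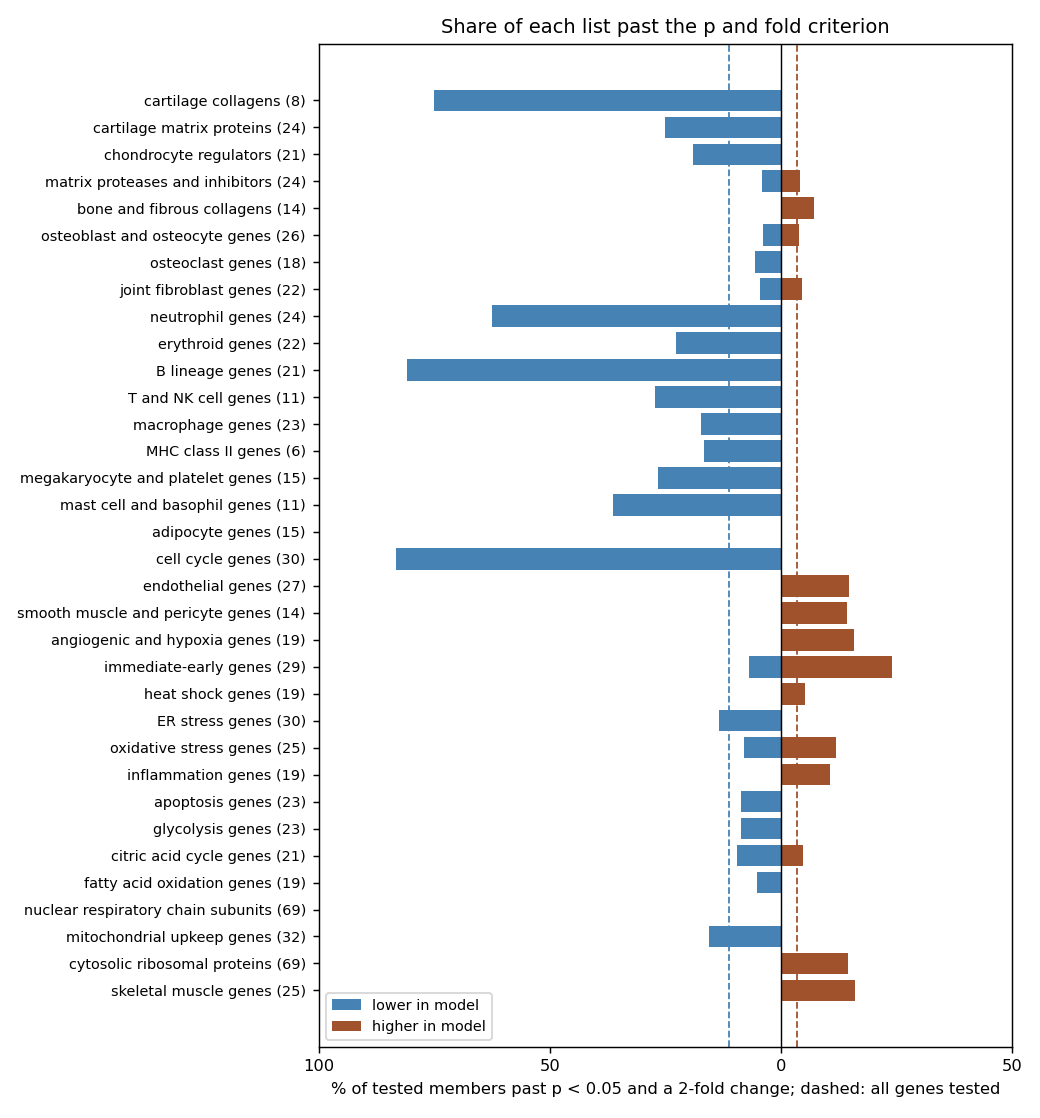
Bars give the percentage of the tested genes of a list that were lower (left) or higher (right) DEGs in the model, and dashed lines mark 11.2% and 3.55%, the same over all genes tested. Cell cycle, B lineage, cartilage collagen and neutrophil genes reach far to the left. On the TPM scale 99.6% of the DEGs over all genes were lower.

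Cartilage collagens were lower in the model. Of the 8 genes tested, 6 were lower DEGs (75% against 11.2% of all genes), none was a higher DEG, and the median log2 fold change was -3.70, negative under every scale tried. No collagen reached an adjusted p-value under 0.05. Col2a1, the main fibrillar collagen of cartilage, measured 8323, 348 and 4468 FPKM in control and 606, 39 and 56.1 FPKM in the model, a log2 fold change of -4.40 ± 1.53 (± SE here and below; limma adjusted p = 0.193). Its groups overlapped, because control 2 lay below model 1. Col9a1 and Col9a3, chains of the type IX collagen that coats the type II fibrils, did not overlap. Col9a1 measured 393, 9.45 and 148 FPKM in control and 4.1, 0.986 and 4.07 FPKM in the model, a log2 fold change of -4.52 ± 1.32 (adjusted p = 0.138). Col9a3 measured 532, 14.8 and 217 FPKM in control and 7.44, 1.16 and 4.94 FPKM in the model (-4.68 ± 1.32, adjusted p = 0.128). Col9a2, the remaining chain of the same trimer, measured 394, 10.9 and 153 FPKM in control and 11, 0 and 0 FPKM in the model, so that its level in control 2 and model 1 was alike. Col11a1 and Col11a2, chains of the type XI collagen in the core of the fibril, had log2 fold changes of -2.31 and -2.37. Col10a1, the collagen of hypertrophic chondrocytes, measured 674, 22.2 and 327 FPKM in control and 48, 5.65 and 29.6 FPKM in the model and was not a DEG (adjusted p = 0.312). The count hung on 1 library in each group and ran from 0 without model 2 to 8 without control 2.

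Other proteins of the cartilage matrix went the same way with more spread. Lower DEGs numbered 6 of 24 (25% against 11.2% of all genes), the median log2 fold change was -1.41, and 20 members had a negative fold change. Of the 6, Matn3 and Matn1 reached a mean of 0.5 FPKM in control alone and so had to differ. Matn3, a matrilin that links collagen fibrils, measured 157, 4.06 and 63.5 FPKM in control and 0, 0.359 and 0 FPKM in the model, the largest difference of the list at -5.07 ± 1.23 (adjusted p = 0.0937). Matn1, its relative, was listed at 0 in every model library against 12.5, 0.59 and 10.7 FPKM in control, at least 32.3-fold lower with a floor of 3 reads per library. Hapln1, the link protein that ties aggrecan to hyaluronan, measured 355, 11 and 204 FPKM in control and 9.15, 7.65 and 5.98 FPKM in the model. Cnmd, the vessel-repelling chondromodulin of cartilage, measured 249, 7.03 and 104 FPKM in control and 6.41, 0 and 5.0 FPKM in the model. None of these 4 genes overlapped between the groups. Acan, the core protein of aggrecan, measured 305, 10.4 and 143 FPKM in control and 34.8, 10.7 and 0.629 FPKM in the model and did overlap, with a log2 fold change of -3.17 ± 1.56 (adjusted p = 0.339). Comp, a cartilage oligomeric protein that is also made by tendon, measured 328, 8.91 and 161 FPKM in control and 69, 37 and 59.1 FPKM in the model. Clec3a, a lectin of cartilage, measured 440.3, 27.4 and 331 FPKM in control and 329, 21.3 and 7.97 FPKM in the model, so that model 1 was at the level of control 3 and model 2 and model 3 were below every control library. Prg4, the lubricant of the joint surface, measured 31.9, 2.92 and 33 FPKM in control and 15.9, 58.8 and 33.5 FPKM in the model and Mgp, which restrains mineral, 294, 40.5 and 229 FPKM in control and 71.2, 331 and 156 FPKM in the model. These last genes showed no common direction. Lower DEGs ran from 1 without control 1 or control 3 to 14 without control 2 when 1 library was left out.

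Regulators of chondrocytes included 4 lower DEGs among 21 tested (19% against 11.2% of all genes), with a median of -0.77. Of the 21, 5 reached a mean of 0.5 FPKM in control alone and so had to differ, among them the DEGs Foxa3 and Ihh. Sox6, a partner of Sox9 in switching on cartilage genes, measured 3.28, 4.84 and 3.58 FPKM in control and 0.68, 0.339 and 1.58 FPKM in the model (-1.43 ± 0.39, adjusted p = 0.122) with no overlap, and here control 2 was the highest library. Foxa3 was listed at 0 in every model library against 3.36, 0.297 and 1.63 FPKM, at least 6.27-fold lower in the group means. Ihh, the hedgehog ligand of growing chondrocytes, measured 24.5, 0.311 and 10.6 FPKM in control and 0, 0.533 and 0 FPKM in the model. Chst11, which sulfates chondroitin chains, measured 31.6, 3.51 and 17 FPKM in control and 1.98, 4.34 and 0 FPKM in the model. Both were lower DEGs that overlapped through control 2 and model 2. Sox9 itself measured 8.82, 0.492 and 5.29 FPKM in control and 3.2, 2.3 and 1.04 FPKM in the model and was not a DEG. Pth1r, the receptor of parathyroid hormone that bone also carries, measured 90.9, 22.5 and 56 FPKM in control and 61.1, 57 and 29.3 FPKM in the model, and the groups overlapped. The count ran from 1 without control 1, control 3 or model 3 to 9 without control 2.

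Proteases that cut the matrix and their inhibitors did not move together. Of 24 tested, 1 was a higher and 1 a lower DEG (4.17% each, against 3.55% and 11.2% of all genes). Mmp13, the collagenase most tied to cartilage breakdown, measured 87.6, 54.4 and 106 FPKM in control and 153, 397 and 87.9 FPKM in the model, a log2 fold change of 1.13 ± 0.59 (adjusted p = 0.368). Model 2 was highest, model 1 was also above control, and model 3 lay within the control range. Mmp9, a gelatinase of osteoclasts and neutrophils, was the lower DEG at 308, 164 and 263 FPKM in control and 72.9, 143 and 99.4 FPKM in the model (-1.22 ± 0.38, adjusted p = 0.158). Timp4, an inhibitor of these enzymes, was the higher one at 0.65, 0.21 and 0.542 FPKM in control and 2.98, 0.796 and 2.93 FPKM in the model, and it was among 4 members that reached a mean of 0.5 FPKM in the model and not in control. The aggrecanases Adamts4 and Adamts5 measured 0.562, 0.204 and 0.70 FPKM in control and 0, 5.69 and 2.14 FPKM in the model for the former and 1.8, 1.59 and 2.36 FPKM in control and 0, 2.51 and 0.156 FPKM in the model for the latter. Mmp3, the stromelysin of synovium, measured 1.81, 0.119 and 1.22 FPKM in control and 0, 18.3 and 35.3 FPKM in the model. Each of these 3 genes was listed at 0 in model 1, a library that could have missed low levels. Higher DEGs went from 0 without control 1, control 2 or control 3 to 4 without model 1 and lower ones from 0 without control 1, control 3 or model 1 to 2 without model 2. The median of the list was 0.26, but -2.02 under TPM, -0.37 with sample quality weights and -0.28 without model 2.

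**Figure D4:**
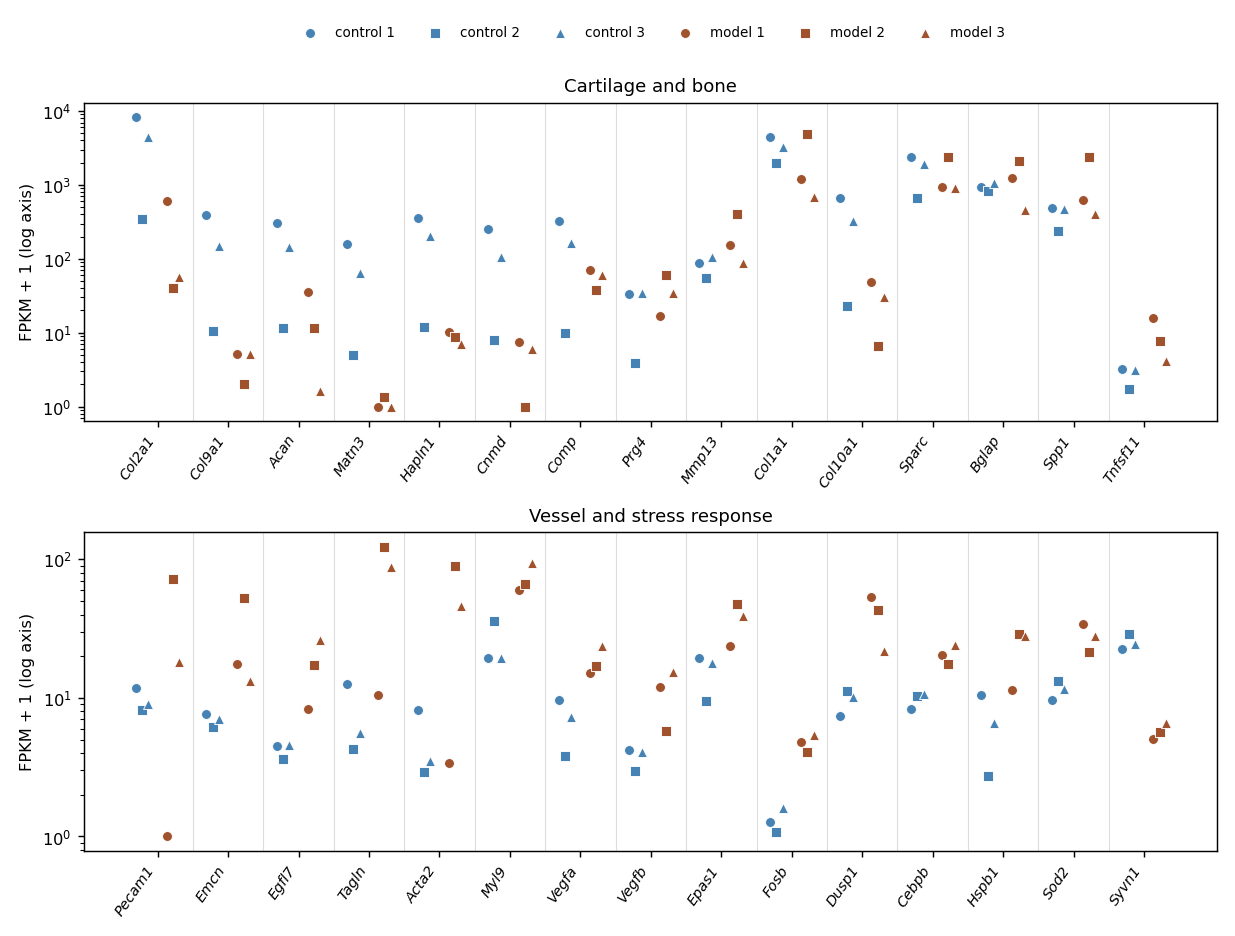
FPKM + 1 on a log axis for genes of cartilage and bone (top) and of vessel and stress response (bottom). Each point is 1 library, coloured by group, with marker shapes for libraries 1 to 3. Control 2 lies within the range of the model libraries for Col2a1 and Acan and below it for Comp. Fosb and Dusp1 lie higher in all 3 model libraries on the FPKM scale. Under TPM the median over all genes moves to -2.60.

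Genes of bone showed no common shift. The 14 bone and fibrous collagens had 1 higher DEG and no lower one (7.14% and 0%, against 3.55% and 11.2% of all genes), with a median of -0.27 that became 0.04 with voom. Col1a1, the main collagen of bone, measured 4426, 1962 and 3225 FPKM in control and 1211, 4944 and 691 FPKM in the model (-0.92 ± 0.99, adjusted p = 0.651). Col3a1, a collagen of loose fibrous tissue, measured 116, 5.77 and 103 FPKM in control and 60.4, 722 and 162 FPKM in the model (2.15 ± 1.37, adjusted p = 0.452). Model 2 was the highest of the 6 libraries for both. Col14a1, which decorates fibrils in tendon and dermis, was the DEG and was highest in model 3, at 3.95, 0.211 and 2.67 FPKM in control and 4.55, 8.75 and 25.9 FPKM in the model (2.02 ± 0.78). Lower DEGs in this list ran from 0 without control 1, control 3, model 1 or model 3 to 4 without model 2.

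Among 26 osteoblast and osteocyte genes, Tnfsf11 was the 1 higher and Phex the 1 lower DEG (3.85% each, against 3.55% and 11.2% of all genes). Leaving out 1 library gave higher DEGs from 0 without control 2, control 3, model 1 or model 2 to 2 without model 3 and lower DEGs from 0 without control 1, control 3 or model 3 to 2 without control 2 or model 2, and the median of -0.24 became 0.25 without model 3 and 0.12 without control 1. Tnfsf11 encodes RANKL, the signal that drives osteoclast formation, and measured 2.17, 0.719 and 2.16 FPKM in control and 14.7, 6.63 and 3.08 FPKM in the model (1.61 ± 0.59, adjusted p = 0.212). Phex, an osteocyte peptidase that governs phosphate, measured 8.09, 2.91 and 8.0 FPKM in control and 1.81, 2.01 and 1.66 FPKM in the model (-1.28 ± 0.44, adjusted p = 0.192). Neither overlapped. Bglap, the osteocalcin of mature osteoblasts, measured 935, 818 and 1067 FPKM in control and 1226, 2121 and 454 FPKM in the model. Spp1, an osteopontin shared by bone and macrophages, measured 489, 238 and 471 FPKM in control and 618, 2406 and 399 FPKM in the model. Sparc, a collagen-binding protein of bone, measured 2369, 660.4 and 1898 FPKM in control and 944, 2371 and 901 FPKM in the model. For these 3 abundant genes the groups overlapped, with model 2 above control for Bglap and Spp1 and model 3 below every control library for Bglap. Tnfrsf11b, the decoy receptor of RANKL, measured 6.33, 0.685 and 3.9 FPKM in control and 8.1, 2.99 and 0 FPKM in the model and was not a DEG.

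Osteoclast genes held 1 fall among 18 tested (5.56%, where 2.35% of all genes fell), and it was their only DEG, against 11.2% lower DEGs of all genes. Itgb3, the integrin chain by which osteoclasts grip bone and which platelets share, measured 31.9, 37.3 and 34.6 FPKM in control and 4.58, 9.96 and 7.85 FPKM in the model and fell by 4.64-fold in the group means (-2.13 ± 0.31, adjusted p = 0.0382). The bone-resorbing enzymes did not follow it. Ctsk, the collagenase cathepsin K, measured 346, 251 and 430.2 FPKM in control and 364, 1071 and 204 FPKM in the model. Acp5, the acid phosphatase TRAP, measured 350.5, 186 and 346 FPKM in control and 177, 522 and 139 FPKM in the model. Model 2 was again highest for both, and model 3 was below every control library. Car2, which makes acid for resorption and is also a red cell enzyme, had its lowest value in model 2, at 138, 353 and 200.5 FPKM in control and 294, 20.3 and 192 FPKM in the model. Lower DEGs of the list ran from 1 without control 1, control 2, control 3, model 1 or model 3 to 6 without model 2.

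Joint fibroblast genes as a list stood above control in model 2 and model 3 and below it in model 1. Their median deviations from the control mean were -0.67, 1.58 and 0.83 in model 1 to 3, and the median fold change of 0.53 turned to -1.97 under TPM, where it was still 0.63 above that of all genes. Aspn, a small proteoglycan of tendon and joint margins, was the higher DEG at 8.67, 0.143 and 2.52 FPKM in control and 5.49, 48.8 and 25.3 FPKM in the model (2.59 ± 1.02, adjusted p = 0.244), and control 1 overlapped with model 1. Bgn and Dcn, relatives of it in fibrous matrix, had log2 fold changes of 1.08 ± 0.83 and 1.14 ± 0.67. Tnmd, a marker of tendon, measured 1.18, 0 and 0.319 FPKM in control and 0, 5.13 and 22.8 FPKM in the model and was no DEG. Dpp4, a peptidase of fibroblasts and lymphocytes, fell instead, at 5.08, 6.44 and 7.39 FPKM in control and 0, 0.135 and 0 FPKM in the model (-2.80 ± 0.32, adjusted p = 0.0382). Of the 22 tested, 1 was a higher and 1 a lower DEG (4.55% each, against 3.55% and 11.2% of all genes). No member was higher without overlap, beside 8.65% of all genes. Higher DEGs of the list ran from 0 without control 2, control 3 or model 2 to 10 without model 1.

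Genes of bone marrow were lower over several lists. Neutrophil genes had 15 lower DEGs of 24 (62.5% against 11.2% of all genes), 13 without overlap (54.2% against 20.0%), a median of -2.72, and a negative fold change for every member tested. Elane, the elastase of promyelocytes (chr7:9817252-9819100 in the table, whose build is not given in the sources used here), fell with the largest fold change of the 24 genes, with 135, 176 and 104 FPKM in control and 7.9, 0.46 and 0 FPKM in the model (-5.86 ± 0.82, adjusted p = 0.0382). Prtn3, its neighbour on the chromosome (chr7:9822122-9831944) and another granule protease, fell as well, with 47.9, 75 and 28.9 FPKM in control and 3.69, 0.694 and 3.5 FPKM in the model (-3.87 ± 0.54, adjusted p = 0.0382). Trem1, a receptor of neutrophils and monocytes, was listed at 0 in every model library against 5.32, 8.0 and 5.63 FPKM, at least 13.6-fold lower (adjusted p = 0.0382). Mpo and RatNP-3b were lower DEGs without an adjusted call. Mpo, the myeloperoxidase, measured 248, 257 and 163 FPKM in control and 52.5, 0.621 and 19.5 FPKM in the model, and RatNP-3b, a defensin, 1109.7, 1345 and 689.8 FPKM in control and 184, 11.6 and 106 FPKM in the model. Defensin genes are near copies of each other (Np4 and Defa5 stand in the same list), so their separate values are uncertain. S100a8, Mmp8 and Ngp overlapped between the groups. S100a8, a calcium-binding protein of late neutrophils, measured 1239, 2312 and 1564 FPKM in control and 4068, 46.7 and 1007 FPKM in the model, and Mmp8, their collagenase, 44.3, 109 and 80.5 FPKM in control and 166, 0.593 and 20.6 FPKM in the model. Model 1 was the highest of the 6 libraries for both, and model 2 the lowest. Ngp, a granule protein, measured 209, 441 and 333 FPKM in control and 213, 2.65 and 65.7 FPKM in the model, with model 1 in the control range. Lower DEGs ran from 11 without control 2 to 21 without model 1.

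Red cell genes split between the model libraries. Haemoglobin mRNA was above control in model 1 and model 3 and far below it in model 2. Hba-a1, an alpha globin, measured 5096, 12594 and 6065 FPKM in control and 31685, 243 and 34883 FPKM in the model, and Hbb, a beta globin, 705, 1725 and 839 FPKM in control and 4559, 40.5 and 5703 FPKM in the model. Hbb was not called on the FPKM of the 6 libraries (0.03 ± 1.93, limma adjusted p = 0.999), but was called higher without model 2 (2.34, adjusted p = 0.0447) and lower under TPM (-3.19, adjusted p = 0.0302). Alas2, the first enzyme of haem synthesis in red cells, measured 183, 498 and 242 FPKM in control and 918, 6.18 and 1121 FPKM in the model and Bpgm, which tunes oxygen release, 57.4, 142 and 71.1 FPKM in control and 454, 23.7 and 528 FPKM in the model. The globin copies Hba-a1 and Hba-a3 are nearly the same in sequence, so reads may be shared between them. Tspo2, Epor and Tfrc, genes of red cell precursors, were below control in every model library. Tspo2, a porphyrin carrier of erythroblasts, fell from 12, 36.8 and 17.4 FPKM to 0 in every model library, at least 36.2-fold (adjusted p = 0.0382). Epor, the erythropoietin receptor, measured 13.3, 34 and 19.1 FPKM in control and 4.67, 0.728 and 5.1 FPKM in the model (-2.46 ± 0.61) and Tfrc, the transferrin receptor by which dividing cells take up iron, 62.8, 114 and 79.6 FPKM in control and 34.6, 38.9 and 15.5 FPKM in the model (-1.55 ± 0.42). Neither overlapped, and neither passed adjustment. Slc4a1, an anion exchanger in the membrane of late precursors, overlapped with 217, 473 and 262 FPKM in control and 342, 0.934 and 274 FPKM in the model. In all 5 of 22 were lower DEGs (22.7% against 11.2% of all genes) and the median was -1.90, but without model 2 it was -0.22, with 4 higher and 5 lower DEGs.

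B lineage genes had the highest share of lower DEGs of the blood cell lists, 17 of 21 (81% against 11.2% of all genes), and 17 did not overlap, beside 20.0% of all genes. Their median was -2.42. Of the 21, 4 reached a mean of 0.5 FPKM in control alone and so had to differ. Cd72, a B cell receptor partner, fell from 30.9, 49.4 and 30.4 to 0, 1.35 and 0 FPKM (-4.80 ± 0.45, adjusted p = 0.0382). Blnk, an adaptor of B cell receptor signalling, fell from 31.2, 37.6 and 33.7 to 6.19, 10.2 and 7.12 FPKM (-2.01 ± 0.26, adjusted p = 0.0382). Rag1, the recombinase of precursors, measured 11.8, 10.9 and 14.6 FPKM in control and 4.01, 0.298 and 1.74 FPKM in the model. Vpreb3, of the same stage, measured 14.5, 18.9 and 20.5 FPKM in control and 5.11, 0.095 and 4.23 FPKM in the model. Jchain, of plasma cells, measured 106, 187 and 122 FPKM in control and 77.6, 2.14 and 7.05 FPKM in the model. None of these 3 overlapped, and model 2 was lowest for Vpreb3, Rag1 and Jchain alike. The lower DEGs ran from 13 without control 2, control 3 or model 2 to 18 without model 1 when 1 library was left out.

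Of T and NK cell genes, 11 of 23 were abundant enough to test, and 3 fell, where 2.35% of all genes fell. Each of the 3 reached a mean of 0.5 FPKM in control and not in the model, so that no share is read from them. Nkg7, a granule membrane protein of killer cells, fell from 35.6, 41.7 and 27.1 FPKM to 0 in every model library, at least 69.3-fold (adjusted p = 0.0261, the lowest of all genes). Cd3g and Cd247, chains of the T cell receptor complex, fell to 0 as well, from 3.14, 6.03 and 3.83 and from 0.99, 1.07 and 0.902 FPKM. Cd4 overlapped, at 21, 15.1 and 19.3 FPKM in control and 13.2, 20.4 and 8.14 FPKM in the model, and macrophages share it. Among 23 macrophage genes, Lyz2, the lysozyme of myeloid cells, fell from 942, 1553 and 1043 to 264, 191 and 177 FPKM (-2.47 ± 0.39, adjusted p = 0.0406) and Itgam, an integrin of neutrophils and macrophages, from 8.61, 9.7 and 9.46 to 2.4, 1.64 and 1.97 FPKM (-1.78 ± 0.29, adjusted p = 0.0418). Cd68 and C1qb, by contrast, overlapped between the groups. Cd68, a lysosomal marker, measured 39.8, 31.8 and 44 FPKM in control and 40.7, 42.7 and 12.3 FPKM in the model and C1qb, a complement chain, 30.4, 25.7 and 29.8 FPKM in control and 77.3, 19.1 and 17.3 FPKM in the model. Lower DEGs in the macrophage list numbered 4 (17.4% against 11.2% of all genes) and ran from 2 without control 3 to 7 without model 2. MHC class II genes had 1 lower DEG of 6 (16.7% against 11.2% of all genes, and from 0 without control 1 or control 2 to 2 without model 3), RT1-DMa, at 10.3, 11 and 9.35 FPKM in control and 0, 2.76 and 3.89 FPKM in the model. The median of -0.07 was 0.39 without model 2 and 0.01 without control 3. Cd74, the chain that guides class II molecules, measured 56.3, 58.2 and 71.8 FPKM in control and 78.6, 33.1 and 58.1 FPKM in the model and overlapped.

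Platelet, mast cell and fat cell genes completed the marrow lists. The 15 megakaryocyte and platelet genes had 4 lower DEGs (26.7% against 11.2% of all genes) and a median of -1.57. These became 2 and -1.13 without control 2, 2 and -0.80 without model 2, and 6 and -1.84 without model 3. Of the 4, Gp6 and Gp1ba reached a mean of 0.5 FPKM in control alone and so had to differ. Ppbp, a platelet chemokine, measured 39.8, 130.4 and 42.4 FPKM in control and 0, 0 and 27.3 FPKM in the model and Gp6, the collagen receptor of platelets, was listed at 0 in every model library against 2.15, 5.39 and 1.66 FPKM, at least 7.78-fold lower (adjusted p = 0.0631). Pf4, another platelet chemokine, measured 45.9, 153 and 57.7 FPKM in control and 124, 6.26 and 70.3 FPKM in the model and overlapped. Of 11 mast cell and basophil genes, Ms4a2, a chain of the IgE receptor, and Hdc, which makes histamine, fell to 0 in every model library, at least 24.5-fold and at least 12.5-fold, where 2.35% of all genes fell. Of control and model, control alone reached a mean of 0.5 FPKM for both genes. In all 4 of the 11 were lower DEGs (36.4%, beside 11.2% of all genes). Among them Ms4a2, Hdc and Mcpt1 were listed at 0 in every model library. As 4 of the 11 members reached a mean of 0.5 FPKM in control alone, no share is read from them. Adipocyte genes had no DEG among 15, but higher DEGs ran from 0 without control 1, control 2, control 3 or model 3 to 4 without model 2, and the median of -0.06 turned to 0.15 after quantile normalization and 0.32 without model 2. Fabp4, a fatty acid carrier of fat cells and capillaries, measured 6.23, 9.61 and 12.8 FPKM in control and 30.8, 8.68 and 62 FPKM in the model. It was called higher without model 2 (log2 fold change 2.13, limma adjusted p = 0.0358), as was Car3, a carbonic anhydrase of fat and muscle (log2 fold change 1.85, adjusted p = 0.0148).

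**Figure D5:**
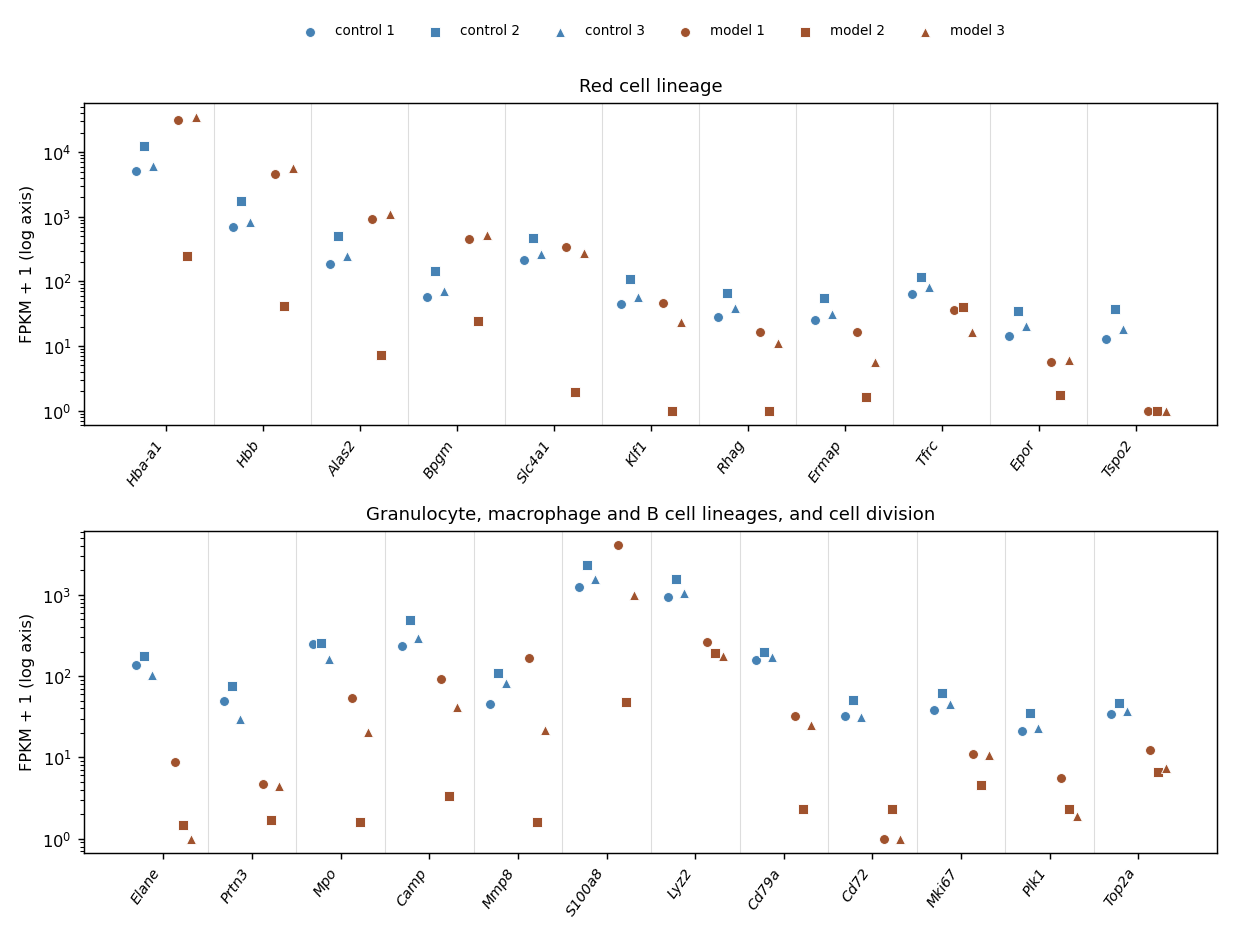
FPKM + 1 on a log axis for genes of the red cell lineage (top) and of granulocytes, macrophages, B cells and dividing cells (bottom), 1 point per library. Globins and Alas2 lie above control in model 1 and 3 and far below it in model 2, while Elane, Cd72, Plk1 and Top2a lie below control in all 3 model libraries. Under TPM the log2 fold change of Hbb went from 0.03 to -3.19.

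Genes of dividing cells were lower throughout. Of 30 cell cycle genes, 25 were lower DEGs (83.3% against 11.2% of all genes), 23 did not overlap (76.7% against 20.0%), all had a negative fold change, and the median was -1.84, negative under every scale tried. The number of lower DEGs ran from 11 without control 2 to 29 without model 1. The 6 genes that fell act from replication to the end of mitosis. Mcm7, part of the helicase that opens DNA, measured 31.1, 50.7 and 33.7 FPKM in control and 9.88, 6.57 and 9.23 FPKM in the model (-2.03 ± 0.29, adjusted p = 0.0382). Top2a, which untangles chromosomes, measured 33, 45.6 and 35.9 FPKM in control and 11.3, 5.64 and 6.31 FPKM in the model (-2.20 ± 0.31, adjusted p = 0.0382). Mki67, the coat protein of mitotic chromosomes used to count dividing cells, measured 37.4, 61.7 and 44.8 FPKM in control and 9.87, 3.61 and 9.8 FPKM in the model (-2.56 ± 0.42, adjusted p = 0.0414). Ccnb2, a cyclin of mitotic entry, measured 19.5, 36.8 and 23 FPKM in control and 2.16, 1.47 and 4.49 FPKM in the model (-2.92 ± 0.41, adjusted p = 0.0382). Plk1, a kinase of the spindle, measured 20.4, 34 and 22 FPKM in control and 4.64, 1.29 and 0.892 FPKM in the model (-3.15 ± 0.49, adjusted p = 0.0401). Cdc20, which starts the parting of chromosomes, measured 27.6, 41.7 and 25.6 FPKM in control and 1.85, 2.96 and 7.25 FPKM in the model (-2.81 ± 0.45, adjusted p = 0.0409). No model library reached the lowest control library for any of them. Control 2, which had the highest neutrophil marker sum of the controls, was the highest library for all 6. Pcna, the sliding clamp of replication, was a lower DEG that overlapped through model 1, at 63.4, 112 and 76.7 FPKM in control and 70.8, 28.6 and 28.2 FPKM in the model. The part of marrow cells in these values was not tested.

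Promoters of the 6 genes are shown because they moved together and because the 150 bases before their starts hold letters known from cell cycle promoters. Sequences come from RefSeq (build GRCr8), run 5′ to 3′ on the strand of the gene and end at the base before its start. Capitals mark CCAAT or its reverse ATTGG, and TTTGAA or its reverse TTCAAA. In Mki67, a TTTGAA and an ATTGG overlap.
Ccnb2, chr8:79981659-79981808, minus strand: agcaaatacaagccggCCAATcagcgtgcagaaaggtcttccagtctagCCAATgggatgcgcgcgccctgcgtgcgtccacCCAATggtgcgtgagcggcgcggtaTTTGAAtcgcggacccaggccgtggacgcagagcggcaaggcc
Cdc20, chr5:137255800-137255949, minus strand: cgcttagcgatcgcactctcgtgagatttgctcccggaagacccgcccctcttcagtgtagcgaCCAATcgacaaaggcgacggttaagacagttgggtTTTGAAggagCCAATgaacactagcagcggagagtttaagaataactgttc
Plk1, chr1:186147508-186147657, plus strand: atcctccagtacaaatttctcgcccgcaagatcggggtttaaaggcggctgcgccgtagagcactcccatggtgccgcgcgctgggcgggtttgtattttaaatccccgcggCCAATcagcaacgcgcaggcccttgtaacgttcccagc
Mki67, chr1:199952594-199952743, minus strand: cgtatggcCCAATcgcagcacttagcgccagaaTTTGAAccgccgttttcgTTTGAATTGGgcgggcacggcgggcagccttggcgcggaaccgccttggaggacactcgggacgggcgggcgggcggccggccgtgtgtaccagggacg
Top2a, chr10:84473094-84473243, minus strand: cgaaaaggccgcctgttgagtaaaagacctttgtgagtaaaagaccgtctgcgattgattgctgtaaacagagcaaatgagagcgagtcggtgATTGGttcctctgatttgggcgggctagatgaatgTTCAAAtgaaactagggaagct
Mcm7, chr12:22163179-22163328, minus strand: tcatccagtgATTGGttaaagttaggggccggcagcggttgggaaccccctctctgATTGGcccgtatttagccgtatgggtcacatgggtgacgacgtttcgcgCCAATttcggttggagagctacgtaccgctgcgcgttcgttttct
The motifs searched, on both strands of the 250 bases before the start, were the CCAAT box, the TTTGAA element of cell cycle genes with its variant TTCGAA, the GC box GGGCGG, the GATAA core of GATA factors, the TGACTCA of AP-1 factors, the CCGGAAG of ETS factors and the TGACG core of CREB factors. They can share bases with each other. CCAAT stood on either strand in the 250 bases before the start of all 6 genes, of 18 of the 24 cell cycle genes with a promoter in the table (75.0%) and of 34.0% of all 33469 promoters. TTTGAA stood in 7 of the 24 (29.2%) and in 16.2% of all. The same CCAAT letters stood in 23 of 27 promoters of ER stress genes (85.2%). TGACG stood in 14 of 23 promoters of immediate-early genes and in 18.2% of all, and GATAA in 12 of 23 of erythroid genes and in 23.5% of all. GGGCGG stood in none of 22 promoters of neutrophil genes and in 30.5% of all. A match is a run of letters and not a bound site.

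Genes of vessels as a list stood above control in model 2, near it in model 3 and below it in model 1. The median deviations of 27 endothelial genes from the control mean were -1.16, 2.08 and 0.31 in model 1 to 3. Higher DEGs numbered 4 (14.8% against 3.55% of all genes), and the median of 0.36 turned to -1.67 under TPM, -0.21 with a fixed total outside MT, -1.11 with sample quality weights and -0.32 with a pseudocount of 0.1. Emcn, a sialomucin of capillaries and of bone vessels, measured 6.64, 5.15 and 6.09 FPKM in control and 16.6, 51.9 and 12.3 FPKM in the model (1.74 ± 0.54, adjusted p = 0.156). Egfl7, a secreted factor of endothelium, measured 3.51, 2.64 and 3.56 FPKM in control and 7.27, 16.4 and 25.3 FPKM in the model (1.89 ± 0.47, adjusted p = 0.0975). Dll4, the Notch ligand of sprouting tips, measured 0.968, 0.425 and 0.821 FPKM in control and 5.05, 7.86 and 1.81 FPKM in the model. Erg, a transcription factor of endothelium and of chondrocytes, measured 3.23, 2.87 and 3.96 FPKM in control and 21.8, 11.4 and 4.38 FPKM in the model. The 4 genes were above control in every model library. Pecam1, the junction protein of endothelium, showed the other pattern, at 10.7, 7.13 and 7.98 FPKM in control and 0, 70.9 and 17 FPKM in the model. Without model 1 there were 10 higher and 1 lower DEGs, and without model 2 there were 3 higher and 5 lower, with a median of -0.55.

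Smooth muscle and pericyte genes had a median of 0.93, which was -1.18 under TPM but 1.42 above that of all genes there. Of the 14 tested, 2 were higher DEGs (14.3% against 3.55% of all genes), and 1 was higher without overlap (7.14% against 8.65%). Myl9, a myosin light chain of contractile cells, measured 18.5, 34.8 and 18.4 FPKM in control and 59.5, 65.5 and 93.9 FPKM in the model (1.61 ± 0.34, adjusted p = 0.0705) and Tagln, an actin-binding protein of smooth muscle, 11.5, 3.26 and 4.61 FPKM in control and 9.48, 122 and 87.1 FPKM in the model (2.86 ± 0.99, adjusted p = 0.19). Acta2, smooth muscle actin, measured 7.13, 1.93 and 2.52 FPKM in control and 2.37, 88.1 and 44.8 FPKM in the model and was not a DEG. Model 1 lay within the control range for Tagln and Acta2, and higher DEGs ran from 1 without control 2, control 3 or model 2 to 8 without model 1. Of 19 angiogenic and hypoxia genes, Vegfa, Vegfb and Epas1 were higher DEGs (15.8% against 3.55% of all genes). Vegfa, the main growth factor of vessels, measured 8.66, 2.84 and 6.32 FPKM in control and 14.1, 16.1 and 22.8 FPKM in the model (1.50 ± 0.41, adjusted p = 0.122). Vegfb measured 3.25, 1.97 and 3.05 FPKM in control and 11, 4.79 and 14.4 FPKM in the model, and Epas1, the hypoxia-inducible factor of endothelium, 18.4, 8.58 and 16.8 FPKM in control and 22.8, 46.9 and 37.9 FPKM in the model. None of the 3 overlapped on the FPKM scale. Other hypoxia targets did not follow, with Car9 listed at 0 in model 1 and 3 and P4ha1, a collagen hydroxylase, at 31.8, 5.54 and 18.7 FPKM in control and 8.27, 25.6 and 3.99 FPKM in the model. With 1 library left out, higher DEGs of this list went from 1 without control 2 to 5 without model 3 and lower ones from 0 without control 1, control 3 or model 1 to 3 without control 2. The median of the list was -0.08, and 0.36 after quantile normalization.

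Immediate-early genes, transcription factors and phosphatases that cells switch on within minutes of stress, growth signals or handling, held DEGs in both directions. Their median deviations from the control mean were -0.08, 0.66 and 0.13 in model 1 to 3. Higher DEGs numbered 7 of 29 (24.1% against 3.55% of all genes) and lower ones 2 (6.90% against 11.2%). The median of 0.54 became -1.96 under TPM, 0.64 above that of all genes. Fosb, an AP-1 subunit, rose from 0.276, 0.0726 and 0.597 to 3.82, 3.04 and 4.42 FPKM (1.87 ± 0.33, adjusted p = 0.0476), and its control mean was below 0.5 FPKM. Dusp1, a phosphatase that ends kinase signalling, measured 6.44, 10.2 and 9.09 FPKM in control and 52.3, 41.8 and 20.9 FPKM in the model (1.96 ± 0.39, adjusted p = 0.0616). Cebpb, a factor of inflammation and differentiation, measured 7.34, 9.29 and 9.67 FPKM in control and 19.3, 16.5 and 23.2 FPKM in the model (1.08 ± 0.25). Jun and Egr1, early factors too, had log2 fold changes of 1.40 and 1.13, and none of these overlapped. Fos measured 3.61, 0.923 and 1.69 FPKM in control and 20.6, 15.7 and 1.99 FPKM in the model and was no DEG, with model 3 within the control range. Btg2 and Myc were lower DEGs, Btg2, which slows division, with 36.7, 62.7 and 44.7 FPKM in control and 19.7, 6.46 and 18.1 FPKM in the model and Myc, a driver of growth, with 8.7, 9.95 and 6.54 FPKM in control and 1.65, 6.29 and 1.54 FPKM in the model. Higher DEGs ran from 3 without control 1, control 2 or control 3 to 9 without model 1, and lower ones from 1 to 5 with 1 library left out.

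Genes of the endoplasmic reticulum (ER) stress response were lower or level. These genes expand protein folding when secretory cells are loaded, and bone, cartilage and plasma cells all use them. Of 30, 4 were lower DEGs (13.3% against 11.2% of all genes), none was higher, 13 were lower without overlap (43.3% against 20.0%), 27 had a negative fold change, and the median was -0.85. Syvn1, a ligase that marks misfolded proteins for disposal, fell from 21.5, 28.1 and 23.4 to 4.06, 4.66 and 5.62 FPKM (-2.13 ± 0.25, adjusted p = 0.0382). Hspa5, the chaperone BiP, measured 92.6, 63.5 and 67.3 FPKM in control and 29.5, 60.2 and 44 FPKM in the model (-0.76 ± 0.33, adjusted p = 0.275) and did not overlap, but was no DEG. Calr, another ER chaperone, measured 195, 142 and 145 FPKM in control and 84.1, 142 and 91.7 FPKM in the model. Xbp1, a factor of the response that the study followed, measured 45.3, 29.1 and 34.9 FPKM in control and 19.6, 30.1 and 27.3 FPKM in the model (-0.49 ± 0.27, adjusted p = 0.393). Atf6, a membrane-bound factor of it, measured 5.4, 4.61 and 5.64 FPKM in control and 3.14, 3.68 and 0 FPKM in the model (-1.21 ± 0.65, adjusted p = 0.377). Atf4 and Ddit3, of the branch that slows translation, measured 56.5, 75.4 and 69 FPKM in control and 63.8, 81.7 and 71.1 FPKM in the model for Atf4 and 6.72, 8.53 and 7.14 FPKM in control and 9.88, 12.7 and 8.54 FPKM in the model for Ddit3. Of the 30 genes, only Ddit3 was above every control library in all 3 model libraries, narrowly in model 3, with a log2 fold change of 0.41 ± 0.26 (adjusted p = 0.453). Piezo1, the stretch-gated calcium channel on which the study centred, measured 12.6, 11.1 and 11.1 FPKM in control and 2.31, 8.17 and 1.06 FPKM in the model (-1.67 ± 0.57, adjusted p = 0.186). It was a lower DEG without overlap, and model 2, with the least mitochondrial RNA of the model libraries, lay nearest to control. Piezo1 was called lower without model 2 (log2 fold change -2.27, limma adjusted p = 0.0123) and under TPM (-4.15, adjusted p = 0.017). On the TPM scale the median over all genes was -2.60. Lower DEGs of the ER list ran from 1 without control 2 to 13 without model 2.

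Heat shock genes had 1 higher DEG of 19 (5.26% against 3.55% of all genes, and from 0 without control 2, model 2 or model 3 to 2 without model 1) and a median of -0.15 that was 0.04 after quantile normalization. The DEG was Hspb1, a small chaperone of muscle and stressed cells, at 9.56, 1.76 and 5.59 FPKM in control and 10.5, 28 and 27.1 FPKM in the model (1.87 ± 0.61, adjusted p = 0.172). Hspa8, the constant cytosolic chaperone, measured 126, 144 and 119 FPKM in control and 147, 148 and 256 FPKM in the model and Hsp90aa1, the inducible chaperone, 82.6, 109 and 83.8 FPKM in control and 64.6, 45.4 and 51.2 FPKM in the model, in opposite directions without overlap. Oxidative stress genes were split, with 3 higher and 2 lower DEGs of 25 (3.55% and 11.2% of all genes). Sod2, the superoxide dismutase of mitochondria, measured 8.74, 12.3 and 10.6 FPKM in control and 33.1, 20.5 and 27.1 FPKM in the model (1.26 ± 0.27, adjusted p = 0.0719). Nqo1, a quinone reductase, measured 2.77, 1.8 and 2.14 FPKM in control and 10.9, 5.4 and 8.7 FPKM in the model and Gpx4, which guards membranes from lipid peroxides, 54.9, 72.8 and 67.5 FPKM in control and 211, 112 and 122 FPKM in the model. These 3 were higher in every model library. Srxn1, which repairs peroxiredoxins, fell from 2.32, 3.41 and 1.52 FPKM to 0 in every model library, at least 4.27-fold (adjusted p = 0.0419), and Gclc, of glutathione synthesis, was lower at 16.8, 31.4 and 20.9 FPKM in control and 7.4, 3.74 and 7.01 FPKM in the model. Gpx1 and Prdx2, abundant in red cells, were high in model 1 and 3 and low in model 2, Gpx1 with 336, 704 and 483 FPKM in control and 1319, 228 and 1434 FPKM in the model. Leaving out 1 library moved the higher DEGs of the list from 2 without model 1 to 7 without model 2. The median of 0.29 was -2.77 under TPM, and there it lay -0.18 from that of all genes.

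Of 25 inflammation genes in the table, 19 were tested, and 2 were higher DEGs (10.5% against 3.55% of all genes). Nfkbia, the inhibitor that NF-kappaB induces, was a higher DEG at 9.65, 11 and 12.8 FPKM in control and 30.1, 24.9 and 17.2 FPKM in the model (1.02 ± 0.28, adjusted p = 0.122). Il33, an alarmin of stromal cells, was the other at 0.705, 0.45 and 0.509 FPKM in control and 3.43, 1.92 and 14.6 FPKM in the model (1.92 ± 0.66). Il1b, a cytokine of macrophages, measured 0.624, 1.09 and 1.02 FPKM in control and 0, 0.79 and 0 FPKM in the model, and was thus listed at 0 in model 1 and 3. Nfkb1 overlapped at 13, 11.2 and 13.5 FPKM in control and 23.8, 7.97 and 8.32 FPKM in the model. Higher DEGs of the list went from 0 without control 1 to 5 without model 1 with 1 library left out. The list median of 0.05 was -1.37 under TPM, -0.11 with a fixed total outside MT and -0.32 with sample quality weights. Apoptosis genes had 2 lower DEGs of 23 (8.7% against 11.2% of all genes, and from 1 without control 1, control 2 or control 3 to 5 without model 2), with a median of -0.32 and 0.02 after quantile normalization. These were Bbc3, a killer protein under p53, at 3.13, 4.38 and 3.46 FPKM in control and 0, 1.13 and 0 FPKM in the model, and Apaf1, the core of the apoptosome, at 4.79, 4.16 and 5.09 FPKM in control and 0.0894, 0.855 and 3.28 FPKM in the model. Trp53 itself measured 13.9, 17.9 and 14.4 FPKM in control and 18.6, 9.65 and 8.55 FPKM in the model and Bax, a pore former of mitochondria, 8.4, 12.2 and 8.45 FPKM in control and 8.72, 10.3 and 9.69 FPKM in the model, with overlap for both.

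Nuclear genes of energy metabolism were taken pathway by pathway. Glycolysis had 2 lower DEGs of 23 (8.7% against 11.2% of all genes, and from 1 without control 1, control 2 or control 3 to 3 without model 2) and a median of -0.32. Both were hexokinases, which trap glucose in the cell, Hk1 at 19.4, 27.7 and 18.8 FPKM in control and 6.01, 6.04 and 0.548 FPKM in the model (-2.42 ± 0.64, adjusted p = 0.112) and Hk2 at 3.68, 2.16 and 3.26 FPKM in control and 0, 1.51 and 1.02 FPKM in the model. Ldha, which makes lactate, measured 94.2, 75 and 73.6 FPKM in control and 85.9, 70.9 and 70.0 FPKM in the model, and the groups overlapped. Lower DEGs of the citric acid cycle went from 0 without model 3 to 3 without model 2. Among its 21 genes, with 4.76% higher and 9.52% lower DEGs against 3.55% and 11.2% of all genes, Idh1, the cytosolic isocitrate dehydrogenase, was a higher DEG at 8.45, 5.65 and 7.11 FPKM in control and 14.7, 17.2 and 25.8 FPKM in the model (1.30 ± 0.30, adjusted p = 0.0845), whereas Ogdh, of the cycle itself, was lower at 32.4, 37.4 and 30.8 FPKM in control and 13.6, 21.6 and 11.8 FPKM in the model, as was Pcx, which refills it, at 3.1, 4.14 and 3.43 FPKM in control and 1.49, 1.43 and 0.659 FPKM in the model. Among fatty acid oxidation genes, Hadha was the 1 lower DEG of 19 (5.26% against 11.2% of all genes), at 21.9, 27.9 and 22.6 FPKM in control and 12.3, 13.4 and 6.96 FPKM in the model. The list itself had a median of 0.35, 11 positive fold changes and 5 members above control without overlap (26.3% against 8.65% of all genes), with a median of -2.41 under TPM and higher DEGs from 0 without control 1, control 2, control 3 or model 3 to 2 without model 1. The 69 nuclear subunits of the respiratory chain included no DEG in either direction, beside 14.7% of all genes, though 11 were higher (15.9% against 8.65% of all genes) and 6 lower (8.7% against 20.0%) without overlap. With 1 library left out, higher DEGs went from 0 without control 1, control 2, control 3 or model 3 to 3 without model 1 and lower ones from 0 without control 1, control 2 or control 3 to 2 without model 2 or model 3. Their median was 0.05, with -2.90 under TPM and -0.17 with a fixed total outside MT. Atp5f1b, the catalytic subunit of ATP synthase, measured 249, 335 and 250.3 FPKM in control and 219, 135 and 195 FPKM in the model. Cox6a1, of cytochrome oxidase, measured 126, 162 and 137 FPKM in control and 161, 112 and 132 FPKM in the model. Neither was a DEG.

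Genes that maintain and read mitochondrial DNA were level or lower. Of 32, 5 were lower DEGs (15.6% against 11.2% of all genes) and none was higher, with a median of -0.41. Of the 5, Polg2 and Prorp reached a mean of 0.5 FPKM in control alone and so had to differ. Tfam, which packs mitochondrial DNA and starts its transcription, measured 8.95, 12.8 and 11.4 FPKM in control and 0, 5.88 and 3.21 FPKM in the model (-1.96 ± 0.73, adjusted p = 0.217). Nrf1, a nuclear factor for mitochondrial genes, measured 3.47, 4.82 and 4.04 FPKM in control and 1.01, 1.89 and 0.0839 FPKM in the model. Polg2, of the DNA polymerase of mitochondria, measured 1.92, 2.29 and 2.14 FPKM in control and 0, 0.586 and 0 FPKM in the model, and Prorp, which cuts tRNAs out of mitochondrial transcripts, 1.35, 2.0 and 1.44 FPKM in control and 0.192, 0.661 and 0 FPKM in the model. None of the 4 overlapped, and Tfam and Polg2 were listed at 0 in model 1. Polrmt, the polymerase that transcribes mitochondrial DNA, measured 2.39, 2.32 and 2.28 FPKM in control and 2.27, 3.05 and 0 FPKM in the model. Pink1, a kinase that flags damaged mitochondria and is also high in red cells, measured 25.9, 28 and 27.2 FPKM in control and 102, 18.6 and 62 FPKM in the model. Lower DEGs ran from 1 without control 2 to 7 without model 1, and higher ones from 0 to 2 with 1 library left out. Pink1 was called higher without model 2 (log2 fold change 1.52, limma adjusted p = 0.0213).

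Ribosomal protein genes were higher as a list on the FPKM scale. Of 69 tested, 68 had a positive fold change, 34 did not overlap (8.65% of all genes in this direction), and 10 were higher DEGs (14.5% against 3.55% of all genes). Their median of 0.72 became -2.45 under TPM, 0.15 above that of all genes, and 0.22 after quantile normalization. Rpl39, of the large subunit, measured 35.3, 30.4 and 43.7 FPKM in control and 80.3, 67.7 and 126 FPKM in the model (1.27 ± 0.31, adjusted p = 0.0935). Rps24, of the small subunit, measured 68.9, 93.9 and 78.1 FPKM in control and 160.5, 140.4 and 322 FPKM in the model (1.27 ± 0.38, adjusted p = 0.142). Rplp0, of the ribosomal stalk, overlapped at 666, 725 and 670.5 FPKM in control and 1074, 677 and 1781 FPKM in the model. Model 3 was the highest library for all 3. Many ribosomal protein genes have near-identical copies elsewhere, and reads can be shared with them. The number of higher DEGs ran from 2 without control 1 or model 3 to 33 without model 2.

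Skeletal muscle genes followed single libraries. Acta1, the actin of muscle fibres, measured 157, 31 and 3.81 FPKM in control and 74.2, 10.4 and 225 FPKM in the model and Tnnc2, a troponin of fast fibres, 44.6, 11.4 and 1.59 FPKM in control and 16.2, 1.77 and 415 FPKM in the model. Model 3 was highest for both, and control 1 was highest of the controls. Tpm1, a tropomyosin of all muscle types and of many other cells, rose from 37.3, 20.9 and 23.1 to 78.9, 77.1 and 78.1 FPKM (1.54 ± 0.27, adjusted p = 0.0475), but its fold change turned to -1.60 under TPM. Tpm2, its relative, was a higher DEG at 7.01, 2.94 and 1.67 FPKM in control and 15.2, 17.3 and 47.5 FPKM in the model (2.47 ± 0.59, adjusted p = 0.0902). Higher DEGs numbered 4 of 25 (16% against 3.55% of all genes) and went from 2 without control 2, control 3 or model 3 to 6 without model 2. The list median was 0.55, -1.60 under TPM, -0.57 with voom and -0.22 without model 3. Of the 15 photoreceptor genes in the table only Rom1 was tested, and it was not a DEG.

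Beyond the lists, the 10 largest falls and rises among protein-coding genes outside MT were read off by rule. The falls included Elane, Nkg7, Cd72, Rnase2, Tspo2, Niban3, Pde6h, Prtn3 and S1pr4. Rnase2, a ribonuclease of eosinophils, fell from 21.1, 23.7 and 15.6 FPKM to 0 in every model library, at least 30.9-fold (adjusted p = 0.0382). S1pr4, a receptor of lymphocytes, fell from 15.4, 25.6 and 18.6 to 2.99, 0 and 0 FPKM (-3.69 ± 0.62, adjusted p = 0.0435). Niban3, of B cells, fell from 24.5, 29.8 and 26.8 to 1.07, 0.75 and 0 FPKM (-4.18 ± 0.37, adjusted p = 0.0382). Pde6h, a phosphodiesterase subunit named for cone photoreceptors, fell from 12.7, 24.2 and 16.4 FPKM to 0, at least 28-fold, although Pde6b and Gnat1 were near 0 in control. For Rnase2 and Pde6h control alone reached a mean of 0.5 FPKM, so both had to differ.

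The 10 largest rises were Sncg, LOC100360791, Clic2, Gadd45g, Cygb, Fam111a, Clec2dl1, Errfi1, Kif1c and Stc1. Sncg, a synuclein of neurons and fat, rose from 1.46, 0.544 and 1.5 to 17.3, 17.2 and 34.8 FPKM (3.43 ± 0.40, adjusted p = 0.0382). Clic2, a chloride channel protein, rose from 4.55, 3.55 and 5.31 to 37, 32.3 and 41.3 FPKM (2.80 ± 0.24, adjusted p = 0.0382). Gadd45g, a growth arrest gene, rose from 5.41, 2.58 and 5.42 to 42.8, 18.4 and 46.2 FPKM (2.70 ± 0.45, adjusted p = 0.0429). Cygb, a globin of fibroblasts, rose from 1.69, 1.25 and 1.54 to 12.1, 10.3 and 23 FPKM (2.62 ± 0.38, adjusted p = 0.0382). Errfi1, a brake on the epidermal growth factor receptor, rose from 3.49, 1.2 and 3.51 to 19.2, 22.4 and 16.4 FPKM (2.51 ± 0.38, adjusted p = 0.0384). Stc1, a secreted regulator of calcium and phosphate, rose from 0.411, 0.10 and 0.292 to 6.21, 4.46 and 3.58 FPKM (2.16 ± 0.34, adjusted p = 0.0406). The model alone reached a mean of 0.5 FPKM for Stc1 and Clec2dl1 (control means 0.268 and 0.313), which therefore had to differ. LOC100360791 is described as like Tpt1, with which it may share reads, and rose from 28.9, 34.5 and 36.5 to 271, 149 and 348 FPKM. On the TPM scale the fold changes of LOC100360791, Clic2, Gadd45g, Fam111a, Errfi1 and Kif1c became negative.

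Mitochondrial genes were kept apart, since they took most of the reads of model 1 and model 3. The mitochondrial chromosome carries 13 mRNAs for subunits of the respiratory chain and ATP synthase, 2 rRNAs and 22 tRNAs, and its long transcripts are cut into these pieces. Of the 37 genes, 34 were tested, 27 were above every control library in all 3 model libraries, and 23 were higher DEGs, beside 3.55% of all genes. Mt-co1, a core subunit of cytochrome oxidase, measured 4086, 4636 and 3756 FPKM in control and 893529, 47804 and 444447 FPKM in the model (6.01 ± 3.86, adjusted p = 0.456). Mt-atp6, of ATP synthase, measured 3765, 4234 and 3545 FPKM in control and 896737, 57377 and 460472 FPKM in the model. Mt-cyb, of complex III, measured 1647, 1702 and 1476 FPKM in control and 325257, 21067 and 168413 FPKM in the model (6.03 ± 2.21, adjusted p = 0.212). For each of the 3 the groups did not overlap, model 2 was nearest to control, and model 1 was highest. Over the 13 mRNAs the ratio to the control mean had a median of 220 in model 1 (range 151 to 257), 13.4 in model 2 (7.27 to 18.6) and 113 in model 3 (79.3 to 140.3). These ratios carry the scaling of the authors, whose library size was 2.01 to 2.18 times the reads in control but 0.193, 1.44 and 0.343 times in model 1 to 3. As a share of the summed FPKM, MT genes took 10.8, 11.3 and 10.2% in control and 95.8, 63.6 and 90.6% in the model, beside the shares of reads given first.

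AY172581.24, an rRNA gene, measured 141, 288 and 172 FPKM in control and 177907, 2887 and 72521 FPKM in the model and AY172581.9, the other, 135, 202 and 138 FPKM in control and 81449.7, 2225 and 36700.4 FPKM in the model. The rRNAs were 514 to 887 times the control mean in model 1, 14.0 to 14.4 times in model 2 and 231 to 362 times in model 3. They made up 1.74, 2.89 and 2.17% of the mitochondrial reads in control and 7.62, 2.43 and 6.29% in the model (exact permutation test, two-sided, p = 0.2), with model 2 inside the control range. Adjusted p-values under 0.05 were reached by 3 tRNA genes. AY172581.2 rose from 113, 92.7 and 81.3 to 19790.3, 1591 and 14415 FPKM (6.33 ± 1.01, adjusted p = 0.0406), AY172581.20 from 7.73, 5.12 and 7.72 to 4180.4, 215 and 2941 FPKM and AY172581.14 from 1.33, 0.362 and 0.338 to 1360.2, 44.4 and 102 FPKM. The nuclear subunits of the same complexes had a median log2 fold change of 0.05 and no DEG in the 6 libraries. The mitochondrial share separated the model from control on every library, and its part in the other differences was not tested.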

How the data were processed

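RNA sequencing libraries of rat knee cartilage (3 control, 3 model) were taken from 1 table of 32043 genes. The authors deposited FPKM per gene and library, made from alignments with HISAT2 2.0.5 according to the submitters' processing notes. These notes name a human build beside rat gene identifiers, so the build behind the coordinates of the table is not given in the sources used here, nor are the counting tool and its use of strand. FPKM times gene length gave whole reads within 0.1 reads for the values of each library, and these set the depths given. Deposited FPKM were tested in R 4.3.3 with limma 3.58.1 (lmFit and eBayes with trend, log2(FPKM + 1)) for genes with a mean of at least 0.5 FPKM over the 9 libraries, with Benjamini-Hochberg adjustment over 13898 genes. Tables and figures were made with Python 3.11.15, numpy 2.4.6, pandas 2.3.3, scipy 1.17.1 and matplotlib 3.10.9. The test was first tested on simulated data. A fold against a group at 0 set the mean of the other group against a floor of 3 reads per library, which covers counting error only. Such a fold need not hold for each single library.

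Genes were named by rule: the 10 largest falls and rises among protein-coding genes outside MT with an adjusted p under 0.05 and no overlap, the 3 most abundant members of each list and its 3 DEGs of lowest p, Piezo1, Xbp1, Atf6, Col2a1, Acan, Mmp13 and the MT genes. Some genes that the rule names are not reported here. The comparison, members and lists were chosen with earlier results of these data known. Alternatives were another pseudocount, filter, scale, weighting or model, and leaving out each library.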

Additional observations from a re-analysis of the deposited data

How the results depend on the processing

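The number of genes with an adjusted p under 0.05, 360 as reported, was 1420 with no filter, 105 and 0 with a mean of at least 1 and 10 FPKM (608 at an unadjusted p under 0.05 in limma for the latter), 51 with the filter over 6 libraries, 9673 under TPM, 92 after quantile normalization, 34 with sample quality weights in voom (3 lower and 31 higher), 41 with robust eBayes and 634 with all 9 libraries in the fit. Leaving out 1 library gave 0 to 2621. The number of DEGs, 2046 as reported, was 459 with a mean of at least 10 FPKM, 10445 under TPM and 3275 with voom, and 1309 (without control 2) to 3344 (without model 2) when 1 library was left out. The lower share of the DEGs was 75.9% as reported, 99.6% under TPM, 85.9% with a fixed total outside MT, 48.1% with a mean of at least 10 FPKM, 55.4% after quantile normalization and 63.3% without model 1.

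Same-numbered control and model libraries deviated from their group means with correlations of -0.196, -0.267 and -0.0805, so the numbers did not pair the samples. With the replicate number as a block 0 genes were called, the smallest adjusted p was 0.254, and 1668 genes were DEGs.

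Fold changes called in either fit turned direction only under TPM, on which scale LOC100360791 was at -0.34, Clic2 at -0.12, Gadd45g at -0.22, Fam111a at -0.51, Errfi1 at -0.17, Kif1c at -0.88, Bglap at -3.03, Hbb at -3.19, C1qb at -3.07, RT1-Da at -2.54, Jund at -2.84, Hspa8 at -2.73, Atf4 at -3.05, Gpx1 at -2.57, Txn1 at -3.09, Cxcl12 at -2.78, Mcl1 at -3.07, Bcl2l1 at -2.90, Mdh1 at -2.98, Acadl at -2.88, Pink1 at -2.31, Vdac2 at -2.62, Vdac3 at -2.92, Rplp0 at -2.54, Rps3a at -2.01, Rps15 at -2.71 and Tpm1 at -1.60. Over all named genes and alternatives, 335 fold changes lost the adjusted call, 152 gained it and 27 turned as above, while 3008 stayed on their side of the threshold, 141 of these uncalled and with the opposite sign. The cause of these changes was not tested, except that TPM divides by a total that mitochondrial RNA dominates. Depth limits low genes in model 1 and model 3, where 1744769 and 3611325 reads were left outside MT.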
